A study of Mus musculus with 9 samples.

Results

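The miR-26 family was examined in small RNA libraries from the livers of 9 male C57BL/6 mice that were 8 weeks old at the start. Members were chosen by name, as every row of the table of mature miRNAs that begins with mmu-miR-26a- or mmu-miR-26b-, and this gave 5 of the 1140 rows. Mice of the control group (n = 3) received normal saline intraperitoneally for 8 weeks, and thioacetamide (TAA), which injures hepatocytes and leads to fibrosis, was given to the TAA group (n = 3) by the same route for 8 weeks. The recovery group (n = 3) also had TAA for 8 weeks and was then left without injections for 8 more weeks, so time and recovery cannot be told apart in this group. The same strain and tissue were used in all groups, no allele is named in the labels, and each library was made from bulk liver, in which fewer cells of a type and less RNA per cell cannot be told apart.

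A miRNA hairpin gives rise to a mature strand from its 5' side (5p arm) and one from its 3' side (3p arm). One of them, the guide, is retained by Argonaute and pairs with target mRNAs through its seed, here taken as bases 2 to 8, while the other is mostly degraded. In the miR-26 family the 5p arm is the guide. The hairpins lie within genes for small phosphatases that act on the C-terminal domain of RNA polymerase II (Ctdsp1, Ctdsp2 and Ctdspl), and host and miRNA are known to act together against entry into S phase. miR-26a is known to target Ezh2, the methyltransferase of Polycomb repressive complex 2, and several cyclins, to be repressed by Myc, and to be low in hepatocellular carcinoma.

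The mature sequences are shown because the shared and the differing bases decide which counts belong together. They were taken from RefSeq (build GRCm38.p6, the build used by the authors under the name mm10), are written 5′ to 3′, and carry the seed in capitals.
mmu-miR-26a-5p: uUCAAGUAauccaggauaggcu
mmu-miR-26b-5p: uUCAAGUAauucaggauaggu
mmu-miR-26a-1-3p: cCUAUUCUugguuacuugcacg
mmu-miR-26a-2-3p: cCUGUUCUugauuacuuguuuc
mmu-miR-26b-3p: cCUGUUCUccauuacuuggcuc
Both 5p arms carry the seed UCAAGUA. Over the 21 positions that they share, counted from 1 at the 5′ end, mmu-miR-26b-5p differs from mmu-miR-26a-5p at 2 (C11U and C21U), and mmu-miR-26a-5p has 1 extra base. mmu-miR-26a-2-3p and mmu-miR-26b-3p share the seed CUGUUCU and are identical at 18 of 22 positions, whereas mmu-miR-26a-1-3p has the seed CUAUUCU. Of the 1140 rows, 935 had a RefSeq sequence under the same name. None of these outside the family had the 5p seed, and 1 had the seed CUGUUCU (mmu-miR-6932-3p, with 1 count in a single control library and 0 in the other libraries).

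The hairpins show which counts can be traced to a locus. They are written 5′ to 3′ on the plus strand, with both mature arms in capitals.
Mir26a-1, chr9:119031796-119031885: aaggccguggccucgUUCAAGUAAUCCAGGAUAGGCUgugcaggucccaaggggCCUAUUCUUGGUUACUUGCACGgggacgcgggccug
Mir26a-2, chr10:126995530-126995613: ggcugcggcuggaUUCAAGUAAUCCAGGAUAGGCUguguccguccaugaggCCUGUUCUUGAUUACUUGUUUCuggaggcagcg
Mir26b, chr1:74394310-74394394: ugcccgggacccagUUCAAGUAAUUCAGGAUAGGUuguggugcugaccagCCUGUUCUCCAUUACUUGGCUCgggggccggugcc
The 5p arm of Mir26a-1 and Mir26a-2 is the same sequence, so counts of mmu-miR-26a-5p cannot be divided between the loci, while each 3p arm belongs to 1 hairpin. In the GENCODE annotation Mir26a-1 is placed in intron 4 or 5 of the 2 protein-coding transcripts of Ctdspl (chr9:118926453-119043998). Mir26a-2 is placed in intron 5 of a protein-coding transcript of Ctdsp2 (chr10:126978717-126999975), and in another such transcript it overlaps an exon by 1 base. Mir26b lies in intron 4 of a protein-coding transcript of Ctdsp1 (chr1:74391509-74397285) and outside another such transcript. The mRNAs of these hosts were not analysed here.

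The libraries held between 9071847 and 12983378 counts. mmu-miR-26a-5p held 91.7% of the family's counts over the 9 libraries and mmu-miR-26b-5p 8.23%, and the 5p arms together made up 99.958% to 99.978% of the family in every library. mmu-miR-26a-5p ranked between 6 and 9 among all rows of a library by count, and mmu-miR-26b-5p between 23 and 31. The 3p arms were rare, with 519 counts in all for mmu-miR-26a-2-3p, 265 for mmu-miR-26b-3p and 9 for mmu-miR-26a-1-3p. The composition of the libraries differed between the groups: mmu-miR-21a-5p held 32.3% to 37.9% of the counts in the TAA libraries, against 17.7% to 22.1% in the control and 18.2% to 22.6% in the recovery libraries, and mmu-miR-122-5p held 10.6% to 12%, 19.7% to 21.5% and 17% to 24.1%, in the same order of groups. The scaling of the libraries therefore enters each level below. Factors of the trimmed mean of M values (TMM), which assume that most miRNAs do not change, were 1.49 to 1.65 in the TAA libraries, against 0.745 to 0.795 in the control and 0.752 to 0.87 in the recovery libraries. On this scale 26.4% of the 420 rows tested in TAA vs control were lower and 31.9% higher (FDR below 0.05, edgeR). That assumption was therefore not plainly met in TAA vs control. The deposited TPM (counts per 1000000 counts of the library) correspond to a scaling by library totals. Against TMM, that scaling moved the median log2 fold change of all rows tested by 1.12 in TAA vs control and by 0.19 in recovery vs control, and by -0.86 when the recovery group was set against the TAA group. In TAA vs control mmu-miR-122b-3p had the same log2 fold changes as mmu-miR-122-5p (-1.96 with TMM and -0.84 with library totals). The library totals, and with them the TPM, thus appear to hold the miR-122 reads in both rows. No fit was run with totals that leave out only mmu-miR-122b-3p.

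To describe the fibrotic liver, the TAA group was compared with the control group. On the TMM scale the guides mmu-miR-26a-5p and mmu-miR-26b-5p were 1.69-fold and 1.83-fold lower in the TAA group, but under library totals their log2 fold changes were above 0. The rare 3p arms mmu-miR-26a-2-3p and mmu-miR-26b-3p were 2.8-fold and 2.69-fold lower on the TMM scale, and under library totals their values were below 0 and did not pass the test. For mmu-miR-26a-5p the counts per 1000000 counts scaled by TMM (CPM) were 24776, 25944 and 29507 in the control, 17425, 13406 and 18812 in the TAA and 29887, 32612 and 26687 in the recovery libraries. All TAA values lay below all others on this scale. The deposited TPM of the same miRNA was 19701, 19429 and 21976 in the control, 25942, 22096 and 30704 in the TAA and 22481, 28383 and 22951 in the recovery libraries, so that on this scale all TAA values lay above all control values. mmu-miR-122-5p held 21.5% of the counts in control replicate 1, 19.8% in control replicate 3 and 11.4% in TAA replicate 2. If mmu-miR-122b-3p holds the same reads, totals without it place TAA replicate 2 below these control replicates. The order of TAA and control values then does not hold, which was not tested in a fit. On the TMM scale the mean fell from 26742 ± 2464 to 16548 ± 2808 CPM (SD, n = 3). The fit, with TMM factors of its own, gave a log2 fold change of -0.76 (SE 0.12, FDR 0.00161 in the quasi-likelihood test of edgeR), whereas under library totals it was 0.37 (SE 0.13, FDR 0.0342).

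mmu-miR-26b-5p, the guide from Ctdsp1, gave the same picture. Its level was 2559.5, 2392 and 2596 CPM in the control, 1381, 1382 and 1536 CPM in the TAA and 2548, 2750.4 and 2598 CPM in the recovery libraries. The spread within each group was small, and the TAA libraries stood below the rest. On the TMM scale the log2 fold change in TAA vs control was -0.87 (SE 0.10, FDR 5e-04), while library totals gave 0.25 with an FDR above the threshold (SE 0.12, FDR 0.0865). As TPM the levels were 2035, 1792 and 1934 in the control, 2055, 2278 and 2508 in the TAA and 1916, 2394 and 2234 in the recovery libraries.

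**Figure D1:**
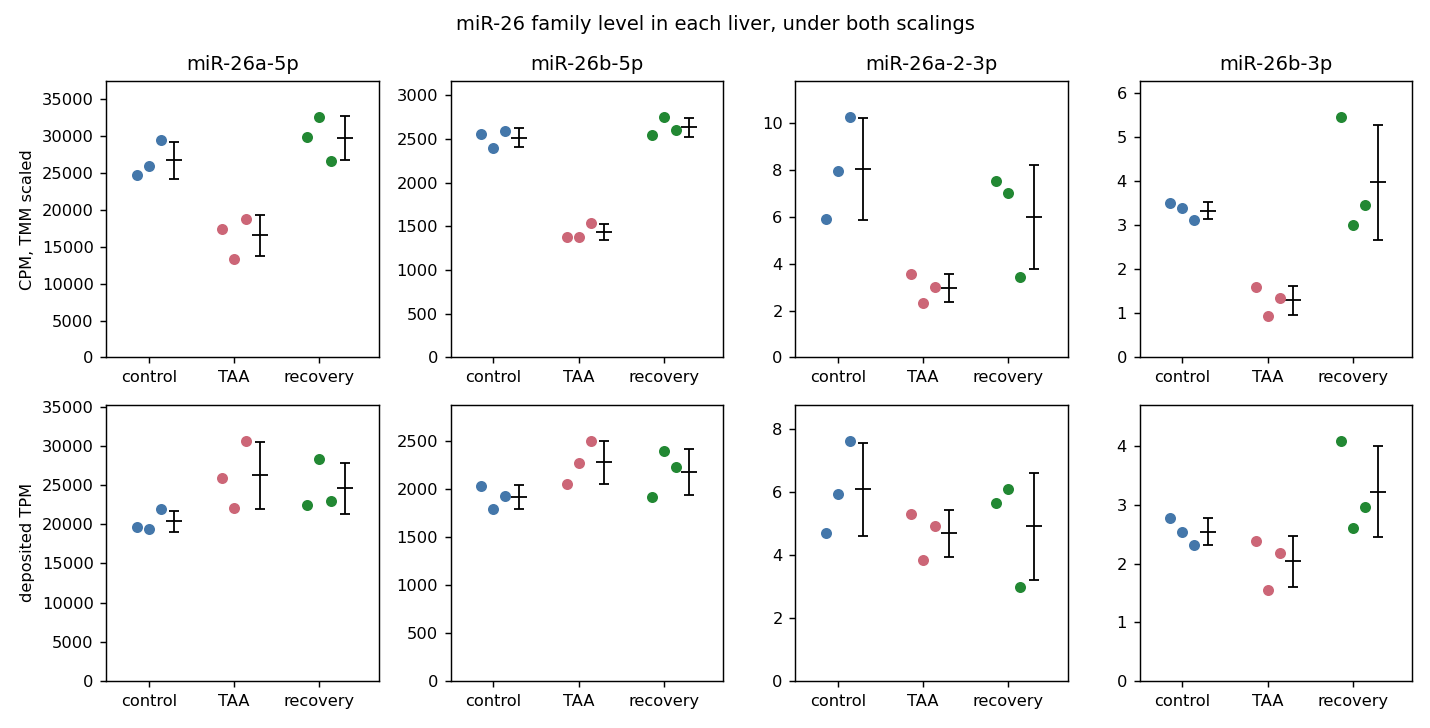
Level of 4 miR-26 arms in each liver, as TMM-scaled CPM (top) and as deposited TPM (bottom); points are libraries, black marks the mean with its SD (n = 3), and each axis starts at 0. For both 5p arms the TAA points lie below the control points on the TMM scale and above them as TPM, whereas the mean of both 3p arms is lower in the TAA group than in the control group on either scale, with overlapping points as TPM.

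The 3p arm of the Ctdsp2 hairpin, mmu-miR-26a-2-3p, had 61, 61 and 76 counts in the control, 60, 35 and 45 in the TAA and 69, 75 and 37 in the recovery libraries. These corresponded to 5.91, 7.94 and 10.3 CPM in the control, 3.56, 2.34 and 3.01 CPM in the TAA and 7.51, 7.02 and 3.45 CPM in the recovery libraries. Control and TAA values did not overlap, and recovery replicate 3 was as low as the TAA libraries. The log2 fold change in TAA vs control was -1.49 (SE 0.27, FDR 0.00276).

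For mmu-miR-26b-3p there were 36, 26 and 23 counts in the control, 27, 14 and 20 in the TAA and 50, 32 and 37 in the recovery libraries. As CPM these were 3.49, 3.38 and 3.10 in the control, 1.60, 0.936 and 1.34 in the TAA and 5.44, 2.996 and 3.45 in the recovery libraries. Every TAA library was below every other library on this scale. Its log2 fold change in TAA vs control was -1.43 (SE 0.29, FDR 0.00469).

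The last member, mmu-miR-26a-1-3p from the Ctdspl hairpin, had 0 counts in each control and recovery library and 2, 4 and 3 counts in the TAA libraries. A count of 0 allows up to 3 counts, which is 0.231 to 0.302 per 1000000 counts in the control libraries, and the TAA libraries held 0.177, 0.441 and 0.327 TPM. The values of TAA replicates 2 and 3 were above the highest of these limits and that of TAA replicate 1 was below all of them. This order holds for library totals only. On the TMM scale the TAA libraries held 0.119, 0.268 and 0.201 CPM, and the control factors (0.745 to 0.795) place the limits higher. The row did not pass the filter on low counts in any comparison, so the difference was not tested and no fold change is given. Reads of a 3p arm therefore came almost only from the Ctdsp2 and Ctdsp1 hairpins.

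A differentially expressed miRNA (DEM) was defined, with the thresholds of the study, by a fold change of 2 or more together with an FDR under 0.05. Of the 4 members that passed the filter, 2 were down-regulated DEMs in TAA vs control, both of them 3p arms, while 16.7% of all 420 rows tested were down-regulated DEMs and 41.7% were DEMs in either direction. By FDR alone 4 of 4 were lower on the TMM scale (under library totals the 5p arms were above 0), against 26.4% of all rows tested, and in 4 of 4 the groups did not overlap, against 67.6% of all rows tested. With library totals 0 of 4 members were DEMs in either direction (58.3% of all rows tested), and by FDR alone 1 of 4 was higher, mmu-miR-26a-5p (71.9% of all rows tested). Groups did not overlap in 2 of 4 members on that scale, the 5p arms (79.5% of all rows tested). The log2 fold changes of the 3p arms under library totals were -0.37 for mmu-miR-26a-2-3p (FDR 0.25) and -0.31 for mmu-miR-26b-3p (FDR 0.349). With the commonly used reference miRNAs mmu-miR-191-5p and mmu-miR-103-3p as the scale, the log2 fold changes were -0.52 (mmu-miR-26a-5p, FDR 0.0268), -0.65 (mmu-miR-26b-5p, FDR 0.00456), -1.26 (mmu-miR-26a-2-3p, FDR 0.00746) and -1.2 (mmu-miR-26b-3p, FDR 0.0132), so that 4 of 4 were lower by FDR, against 19.3% of all rows tested. The references differed from each other: on the TMM scale mmu-miR-103-3p was itself lower (-0.4, FDR 0.0381) and mmu-miR-191-5p was not (-0.03, FDR 0.813). Under library totals both were higher, mmu-miR-103-3p at 0.72 (FDR 0.00183) and mmu-miR-191-5p at 1.09 (FDR 0.000152). Whether they were stable thus depended on the scaling as well.

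**Figure D2:**
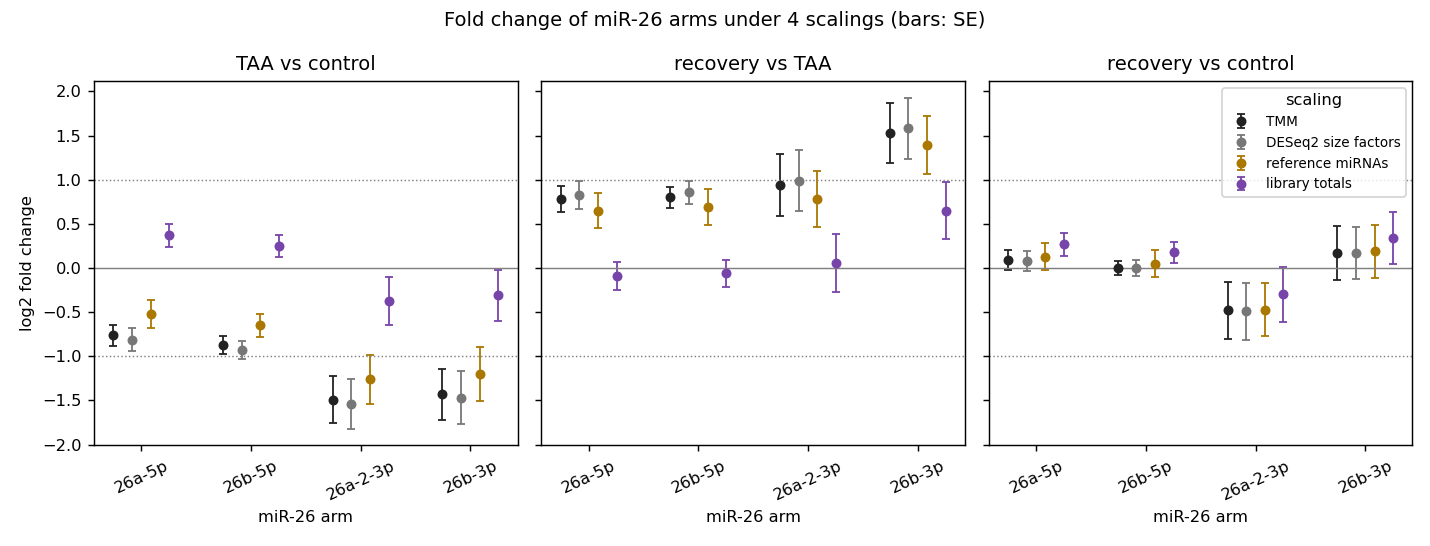
Log2 fold change of 4 miR-26 arms (x axis) in 3 comparisons under 4 scalings of the libraries; bars are the SE and dotted lines mark a fold change of 2. In TAA vs control the 5p arms are negative under TMM (-0.76 and -0.87), DESeq2 size factors and reference miRNAs and positive under library totals (0.37 and 0.25), and in recovery vs TAA they are positive under the first 3 and at -0.09 and -0.06 under library totals.

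The order of the fold changes depends little on the scaling, since a scaling moves all rows nearly alike. In TAA vs control 23.3% of the rows tested had a lower log2 fold change than mmu-miR-26a-5p and 20.7% a lower one than mmu-miR-26b-5p, under TMM and under library totals. For mmu-miR-26a-2-3p and mmu-miR-26b-3p these percentages were 7.86 and 8.33. In recovery vs TAA, which shares the TAA libraries with the first comparison, 81.4% and 81.6% of the rows had lower values than mmu-miR-26a-5p and mmu-miR-26b-5p on the TMM scale, 86.1% than mmu-miR-26a-2-3p and 96.1% than mmu-miR-26b-3p. On the TMM scale the median over all rows tested was 0.11 (TAA vs control) and -0.12 (recovery vs TAA). These ranks are a description of where the family stood and carry no test.

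**Figure D3:**
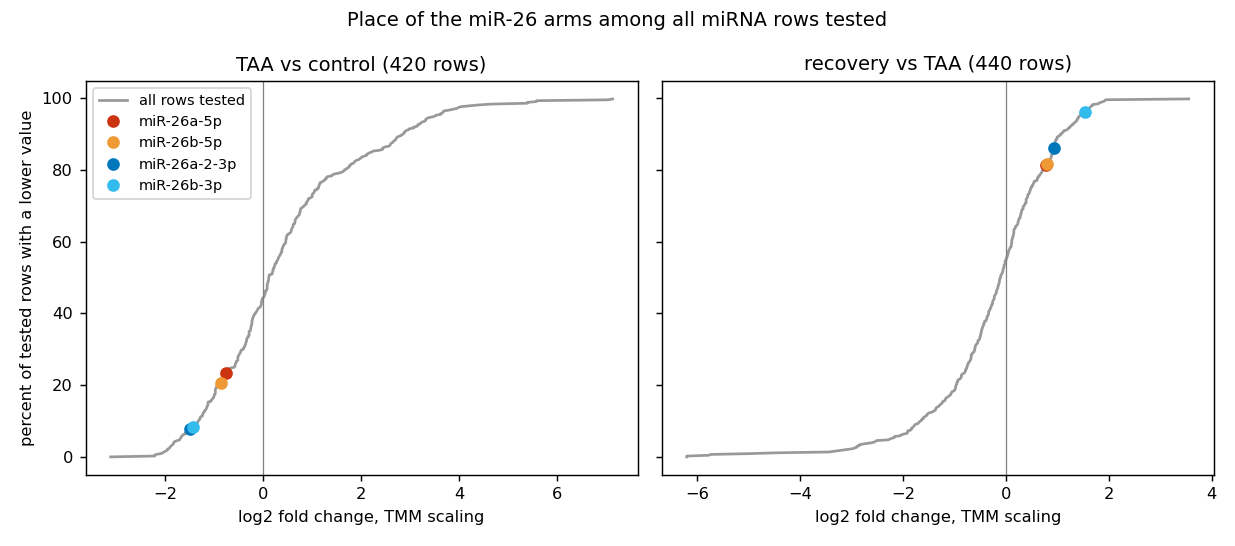
Log2 fold change on the TMM scale (x axis) against the percentage of rows tested that had a lower value (y axis), for all rows (grey line) and 4 miR-26 arms (points). In TAA vs control the arms stand between 7.86% and 23.3%, and in recovery vs TAA between 81.4% and 96.1%; the ranks hold nearly alike under library totals, where the 5p arms change sign in both comparisons.

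To describe the liver after TAA withdrawal, the recovery group was compared with the TAA group. mmu-miR-26b-3p was the 1 up-regulated DEM among the 4 members tested (log2 fold change 1.53, SE 0.34, FDR 0.0094), while 10.2% of all 440 rows tested were up-regulated DEMs and 24.8% were DEMs in either direction. On the TMM scale mmu-miR-26a-5p was 1.71-fold higher (0.78, SE 0.15, FDR 0.00549) and mmu-miR-26b-5p 1.74-fold higher (0.80, SE 0.12, FDR 0.0021) in the recovery group, below the fold threshold, and under library totals the corresponding log2 values were -0.09 (FDR 0.631) and -0.06 (FDR 0.731). By FDR alone 3 of 4 members were higher on the TMM scale (under library totals the 5p arms were below 0), against 18.4% of all rows tested. In the same 3 members the groups did not overlap, against 52.7% of all rows tested.

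mmu-miR-26a-2-3p did not pass the test in recovery vs TAA (log2 fold change 0.94, SE 0.35, FDR 0.0646). This call turned on single libraries: without recovery replicate 3 the value was 1.26 (FDR 0.0153), and without TAA replicate 1 it was 1.14 (FDR 0.0421), and in each case 2 members were DEMs. Under library totals 0 of 4 members were DEMs, with 0.65 for mmu-miR-26b-3p (FDR 0.103) and 0.06 for mmu-miR-26a-2-3p (FDR 0.885), while 47% of all rows tested were DEMs. The values of mmu-miR-26b-3p in the recovery group lay above those of the TAA group under library totals also, the 1 member of 4 without overlap there (69.8% of all rows tested).

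In recovery vs control, the comparison of what was left after withdrawal, 0 of 4 members were DEMs by edgeR and by DESeq2, and 0 had an unadjusted p-value below 0.05, while 11.3% of all 391 rows tested were DEMs. The log2 fold changes were 0.09 for mmu-miR-26a-5p (SE 0.11, FDR 0.751), 0.00 for mmu-miR-26b-5p (SE 0.08, FDR 0.992), 0.17 for mmu-miR-26b-3p (SE 0.31, FDR 0.834) and -0.48 for mmu-miR-26a-2-3p (SE 0.32, FDR 0.459). Control and recovery overlapped in each of these members on the TMM scale, against 26.9% of all rows tested without overlap. As TPM the recovery values of mmu-miR-26a-5p lay above the control values, with a log2 fold change of 0.27 (SE 0.13, FDR 0.242), and 1 of 4 members was without overlap on that scale, against 27.9% of all rows tested.

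The ratio of the arms of 1 hairpin within a library does not depend on the scaling. For Mir26b there were 1.36, 1.41 and 1.20 reads of mmu-miR-26b-3p per 1000 reads of mmu-miR-26b-5p in the control, 1.16, 0.678 and 0.87 in the TAA and 2.14, 1.09 and 1.33 in the recovery libraries. The TAA values were below the control values but with wide counting intervals, for example 0.37 to 1.14 in TAA replicate 2 and 1.58 to 2.81 in recovery replicate 1 (95%, exact binomial, covering counting error only). For mmu-miR-26a-2-3p there were 0.238, 0.306 and 0.348 reads per 1000 reads of mmu-miR-26a-5p in the control, 0.204, 0.175 and 0.16 in the TAA and 0.251, 0.215 and 0.129 in the recovery libraries. Here too the TAA values lay below all control values, and recovery replicate 3 had the lowest ratio of the 9 libraries. Since mmu-miR-26a-5p comes from both miR-26a hairpins, this ratio sets the arm of 1 locus against the guide of both.

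The arm ratios were tested with limma over all hairpins whose arms both passed the filter. In TAA vs control the log2 ratio changed by -0.71 for mmu-miR-26a-2-3p (SE 0.24, FDR 0.127) and by -0.57 for mmu-miR-26b-3p (SE 0.33, FDR 0.357), so that 0 of 2 miR-26 ratios passed the FDR threshold, against 3.97% of the 126 hairpins tested. In both ratios the groups did not overlap, against 24.6% of the hairpins tested. By limma 1 of 2, mmu-miR-26a-2-3p, had an unadjusted p-value below 0.05 (0.0141), against 17.5% of the hairpins tested. Hence the larger fall of the 3p arms on the TMM scale was not shown to differ from that of the 5p arms. In recovery vs TAA the changes were 0.71 for mmu-miR-26b-3p (SE 0.35, FDR 0.275) and 0.10 for mmu-miR-26a-2-3p (SE 0.30, FDR 0.883), with 3.73% of 134 hairpins called and 21.6% at an unadjusted p-value below 0.05. Without recovery replicate 1 the change for mmu-miR-26b-3p was 0.43. Both ratios overlapped between these groups (26.1% of hairpins without overlap). In recovery vs control they were 0.13 (SE 0.31, FDR 0.994) and -0.62 (SE 0.29, FDR 0.921), with 0% of 121 hairpins called and 3.31% at an unadjusted p-value below 0.05, and both ratios overlapped (8.26% of hairpins without overlap). Without recovery replicate 3 the change for mmu-miR-26a-2-3p was -0.34, and without recovery replicate 1 that for mmu-miR-26b-3p was -0.14.

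**Figure D4:**
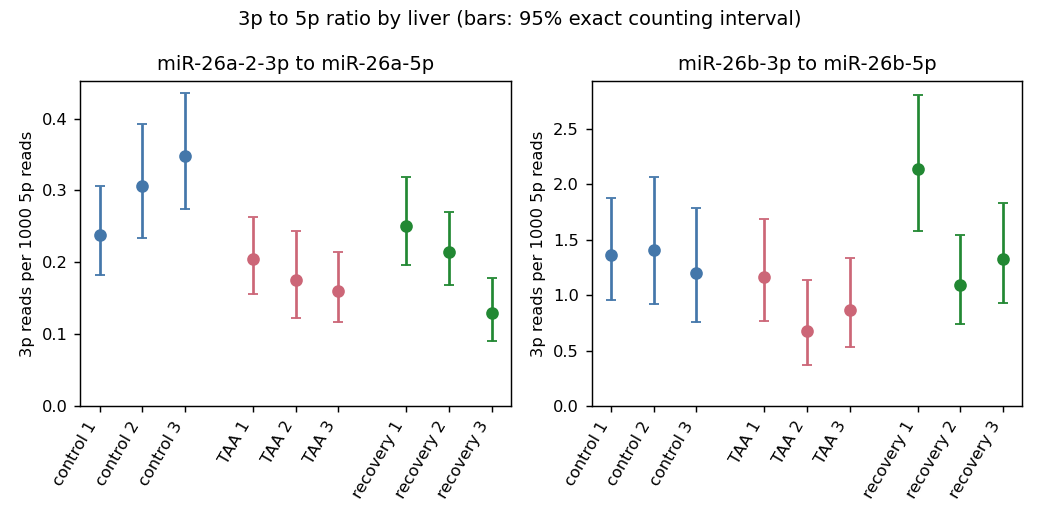
Reads of the 3p arm per 1000 reads of the 5p arm in each liver for mmu-miR-26a-2-3p (left) and mmu-miR-26b-3p (right); bars are 95% exact binomial intervals of counting error, and the axes start at 0. The 3 TAA points lie below the 3 control points in both panels (0.16 to 0.204 against 0.238 to 0.348, and 0.678 to 1.16 against 1.20 to 1.41), and the recovery points spread over both groups.

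The proportion of the guides to each other was compared between the groups. There were 9.68, 10.8 and 11.4 reads of mmu-miR-26a-5p per read of mmu-miR-26b-5p in the control, 12.6, 9.7 and 12.2 in the TAA and 11.7, 11.9 and 10.3 in the recovery libraries, and the groups overlapped. The mean log2 ratio was 3.41 ± 0.119 in control, 3.52 ± 0.208 in TAA and 3.49 ± 0.115 in recovery mice (SD, n = 3). The exact two-sided permutation p was 0.5 for TAA vs control, 0.8 for recovery vs TAA and 0.5 for recovery vs control (0.75, 0.8 and 0.75 adjusted over the 3 comparisons), and 3 samples against 3 cannot give a p below 0.1.

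The family as a whole held 2.17%, 2.12% and 2.39% of all counts in the control, 2.8%, 2.44% and 3.32% in the TAA and 2.44%, 3.08% and 2.52% in the recovery libraries, each within a 95% Wilson interval at most 0.0232 percentage points wide. The share in the TAA group exceeded that in the control group by 0.624 percentage points (exact permutation p = 0.1, adjusted 0.15), and the recovery group exceeded it by 0.45 (p = 0.1 in the exact permutation test, adjusted 0.15). Without TAA replicate 3 the difference of TAA vs control was 0.389, and without recovery replicate 2 that of recovery vs control was 0.25. The total in these shares appears to hold the miR-122 reads in both of their rows. mmu-miR-122-5p held 19.7% to 21.5% of the counts in control, 10.6% to 12% in TAA and 17% to 24.1% in recovery libraries. If mmu-miR-122b-3p holds the same reads, a total without it places TAA replicate 2 below control replicates 1 and 3. The TAA and control groups then overlap, while each recovery value stays above each control value. No test was run on shares of that total. With other denominators the difference of TAA vs control changed sign, and that of recovery vs control remained above 0 (0.682 and 1.2). When the total left out the miR-122 rows (mmu-miR-122b-3p, mmu-miR-122-5p) the shares were 3.76% ± 0.232 (control), 3.7% ± 0.615 (TAA) and 4.44% ± 0.436 (recovery). When the 5 most abundant rows were left out of the total (mmu-miR-21a-5p, both miR-122 rows, mmu-miR-148a-3p and mmu-miR-192-5p), the shares were 11.4% ± 0.782, 9.9% ± 0.459 and 12.6% ± 0.991, and each TAA value was below every value of the other groups (exact permutation p = 0.1 for each).

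**Figure D5:**
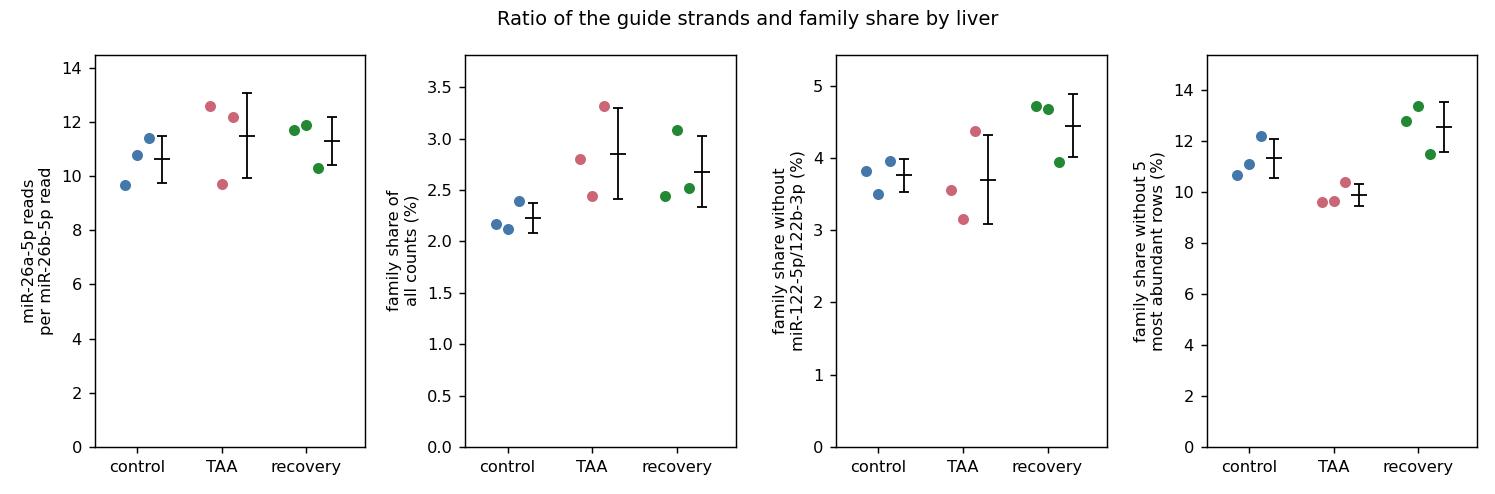
Reads of mmu-miR-26a-5p per read of mmu-miR-26b-5p (first panel) and the share of the family in the counts of each liver with 3 denominators (other panels); points are libraries and black marks the mean with its SD (n = 3). The ratio overlaps between the groups, and the TAA share is the highest of the 3 groups in all counts (mean 2.85%) and the lowest without the 5 most abundant rows (mean 9.9%).

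Some miRNAs outside the family followed the guides closely. Likeness was measured as the SD over the 9 libraries of the log2 ratio of 2 miRNAs, which is free of scaling, among 98 rows of at least 100 CPM, and the libraries share their group differences. mmu-miR-26b-5p itself had an SD of 0.14 to mmu-miR-26a-5p. Next to mmu-miR-26a-5p were mmu-miR-30c-5p (0.15), mmu-miR-99a-5p (0.16), mmu-miR-29a-3p (0.17), mmu-let-7a-5p (0.18) and mmu-miR-126a-3p (0.19), while the median over the 98 rows was 0.44. Nearest to mmu-miR-26b-5p were mmu-miR-126a-5p and mmu-miR-126b-3p (0.11 each), whose counts are nearly identical (66692 and 66689 in all) and cannot be assigned to either, followed by mmu-miR-29a-3p and mmu-let-7a-5p (0.13 each) and mmu-miR-30b-5p (0.14). The 3p arms were less alike, with SDs of 0.45 (mmu-miR-26a-2-3p) and 0.46 (mmu-miR-26b-3p) to mmu-miR-26a-5p, at far lower counts.

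A list of 16 other miRNAs known to be repressed by Myc, as miR-26a is, was read from the same fits. In TAA vs control on the TMM scale 11 of 16 were lower and 3 higher by FDR, while 26.4% of all rows tested were lower and 31.9% higher. DEMs were 5 lower and 1 higher of the 16, against 16.7% and 25% of all rows, and the list median was -0.82 against 0.11 over all rows tested. Under library totals 1 of 16 was lower and 8 were higher by FDR, against 5.24% and 71.9% of all rows tested (median 0.30 against 1.23 over all rows). The lowest values on the TMM scale were those of mmu-miR-29c-3p (-2.18, SE 0.19, FDR 0.000114) and mmu-miR-29b-3p (-1.24, SE 0.19, FDR 0.00122), of a family known to repress collagens. The highest were those of mmu-miR-34a-5p, a target of p53 (2.66, SE 0.19, FDR 0.000104), and mmu-miR-195a-5p (0.80, SE 0.19, FDR 0.00926). In recovery vs TAA 9 of the 16 were higher and 3 lower by FDR on the TMM scale, against 18.4% and 20.7% of all rows tested (median 0.58 against -0.12 over all rows). Under library totals 1 was higher and 6 were lower, against 4.09% and 60% of all rows tested.

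Of 6 other miRNAs known to target Ezh2, 4 passed the filter and all of these were lower by FDR in TAA vs control on the TMM scale, against 26.4% of all rows tested. Down-regulated DEMs were 2 of the 4 (16.7% of all rows), mmu-miR-101b-3p (-1.84, SE 0.15, FDR 0.000114) and mmu-miR-101a-3p (-1.52, SE 0.23, FDR 0.00127). mmu-let-7a-5p (-0.79) and mmu-let-7c-5p (-0.46) stayed below the fold threshold. mmu-let-7a-5p is on the list of Myc-repressed miRNAs also and is among the rows nearest to both guides. Other nearest rows are on the Myc list as well, so the lists and the nearest rows are not separate observations. Under library totals 2 of the 4 were higher and 1 was lower by FDR, against 71.9% and 5.24% of all rows tested. In recovery vs TAA 3 of the 4 were higher by FDR on the TMM scale (18.4% of all rows tested), and 2 were up-regulated DEMs (10.2% of all rows tested). In recovery vs control 0 of the 4 and 0 of the 16 had an FDR below 0.05 in the test of edgeR, against 14.1% of all rows tested.

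Markers of the cell types in liver moved with the groups as well, and their part in the values of the family was not tested. On the TMM scale, 16.7% of all rows tested in TAA vs control were down-regulated and 25% up-regulated DEMs, against which the counts below are to be read. Among hepatocyte miRNAs 4 of 5 were down-regulated DEMs in TAA vs control, and their summed level was 367086 to 375679 CPM in the control, 106791 to 109691 CPM in the TAA and 278605 to 409410 CPM in the recovery libraries. Of the biliary epithelial miRNAs 5 of 5 were up-regulated DEMs (574 to 775 CPM in the control, 3301 to 5325 in the TAA and 1263 to 1443 in the recovery libraries). Up-regulated DEMs were 3 of 5 stellate cell and myofibroblast miRNAs (summed level 25835 to 30991 CPM in the control and 17868 to 39329 in the TAA libraries) and 2 of 6 leukocyte miRNAs (198 to 231 and 295 to 338 CPM). Of the endothelial miRNAs 0 of 2 were DEMs, although both were lower by FDR (8445 to 8829 CPM in the control and 5648 to 6865 in the TAA libraries), and 1 of 3 red cell miRNAs was a down-regulated DEM (778 to 1357 and 204 to 459 CPM). Under library totals 2 of 5 hepatocyte miRNAs were lower by FDR (5.24% of all rows tested), mmu-miR-122-5p (-0.84) and mmu-miR-192-5p (-0.46), and 0 of 5 were down-regulated DEMs (0.952% of all rows), while 1 was an up-regulated DEM. As TPM the summed hepatocyte level was 273391 to 298721 in the control and 163304 to 176016 in the TAA libraries. On that scale both endothelial miRNAs were higher by FDR (71.9% of all rows tested), and up-regulated DEMs (57.4% of all rows tested) were 5 of 5 biliary, 4 of 5 stellate cell and 6 of 6 leukocyte miRNAs.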

How the data were processed

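Small RNA was sequenced from 9 mouse livers, 3 per group. The authors prepared the libraries with a NEBNext small RNA kit, mapped the reads to mm10 and to miRBase with Bowtie (version 1.3.0 in the submitters' processing notes), and deposited read counts per mature miRNA and TPM values. The deposited TPM equalled the count divided by the library total and multiplied by 1000000 (largest difference 4.96e-05), with no length term. The handling of strand and of reads that match several miRNAs was not stated. Some other rows held nearly the same counts (mmu-miR-126a-5p and mmu-miR-126b-3p, 66692 and 66689), so some reads appear to be counted in both rows. Reads may thus be split between mmu-miR-26a-5p and mmu-miR-26b-5p or counted in both. No family member had counts within 2% of those of another row.

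The counts were fitted with edgeR (version 4.0.16, R 4.3.3): filterByExpr (minimum count 10), scaling by TMM, and a quasi-likelihood F test on the 6 samples of a comparison, with Benjamini-Hochberg adjustment over all rows tested. TMM factors were computed for each fit from the filtered rows of its 6 samples. The CPM levels and the factors printed above came from all rows of all 9 libraries. Fold changes therefore need not equal the ratios of mean CPM. The SE was taken as the size of the log2 fold change divided by the square root of F. Arm ratios were tested with limma (version 3.58.1) on log2 ratios of counts plus 0.5. DESeq2 (version 1.42.0), the authors' tool, was an alternative. Both fits were run on simulated data for TAA vs control with equal numbers of raised and lowered miRNAs, which cannot test the choice of scaling. Groups came from the sample titles; mice with the same replicate number are different animals, and p-values measure the spread between mice. No replicates agreed within sampling noise. The members, lists and alternatives were chosen with earlier results of these data known. All family rows were named; the nearest rows and at most 4 rows of a list were named by rank.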

Additional observations from a re-analysis of the deposited data

How the results depend on the processing

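The direction of the 5p arms rested on the scaling. In TAA vs control the log2 fold change of mmu-miR-26a-5p was 0.37 with library totals, 0.36 with limma on log2(TPM + 1) or log2(TPM + 0.1), and 0.23 with library totals after removal of mmu-miR-21a-5p and both miR-122 rows, an alternative chosen after seeing the data; that of mmu-miR-26b-5p was 0.25, 0.25, 0.25 and 0.13. In recovery vs TAA the first 3 of these gave -0.09 in each case for mmu-miR-26a-5p and -0.06, -0.07 and -0.07 for mmu-miR-26b-5p. These alternatives gave 0 DEMs among the members in each of these comparisons, against 2 and 1, as did the chosen-later one. Requiring a mean of 10 CPM removed both 3p arms and left 0 DEMs in each. FDR alone called 4 and 3 members, and DESeq2 called 2 in recovery vs TAA. Size factors of DESeq2, reference miRNAs, no filter, all 9 samples and removal of the miR-122 rows kept the 2, 1 and 0 DEMs of the 3 comparisons.

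In recovery vs control mmu-miR-26b-5p lay near 0 and changed sign, to 0.18 with library totals and with limma, 0.16 after the removal chosen later, 0.07 with the CPM filter, 0.05 with reference miRNAs, 0.04 with all 9 samples or without the miR-122 rows, and 0.01 with DESeq2. The difference in family share became -0.0641 and -1.46 percentage points (TAA vs control), or 0.746 and 2.66 (recovery vs TAA), without the miR-122 rows and without the 5 most abundant rows in the total, respectively.

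When each replicate was left out in turn, the DEMs among the members numbered 2 to 2, 1 to 2 and 0 to 0. Ranges that crossed 0 were those of mmu-miR-26b-5p (-0.05 to 0.04) and mmu-miR-26b-3p (-0.09 to 0.36) in recovery vs control, of the arm ratio of mmu-miR-26b-3p in recovery vs control (-0.14 to 0.34) and of mmu-miR-26a-2-3p in recovery vs TAA (-0.10 to 0.37), and, in recovery vs TAA, of the log2 ratio of the guides (-0.142 to 0.0474) and of the family share (-0.382 to 0.0602). With a block for the replicate number, 2, 1 and 0 members were DEMs and 0 arm ratios were called in each comparison. By the design the numbers mark different animals. Deviations of same-number samples correlated between -0.38 and 0.37, and 5 of 18 best matches shared the number. These values cannot decide whether samples with the same number shared a batch. The counts of the 3p arms, 14 to 76 per library, limit what the arm ratios can show.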
